A study of Mus musculus with 14 samples.

Results

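The Gadd45 genes (growth arrest and DNA damage inducible 45) form a small family of stress genes, and their transcripts were followed here in the mouse liver as it regenerates after partial hepatectomy (PHx), an operation that takes away some of its lobes. All probe sets with the single gene symbol Gadd45a, Gadd45b or Gadd45g in the annotation of the array were taken. They are 3 genes of 12393 on the array, with 5 of the 22626 probe sets that are not controls, 1 for Gadd45a, 3 for Gadd45b and 1 for Gadd45g, and all 5 were bright enough to be tested (13576 were, for 8453 genes). The family was picked with its values in this time course already known, so the values of its members are given as a description, with standard errors (SE) and without p-values.

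The samples were livers at 4, 8, 12, 36, 48 and 72 h after PHx, and normal mouse liver, with 2 arrays in each of the 7 groups and 14 arrays in all. Livers of 4 to 6 mice were pooled for an RNA extraction, per the design text. The strain, age and sex of the mice, and a sham operation, are not given in the sources used here, so every change below is against liver of mice described only as normal. Nothing in the labels tells if both arrays of a group hold RNA of separate pools, so the errors and p-values cover the spread between these samples alone, and that spread may be technical. The number of arrays limits the precision.

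Gadd45 proteins are small acidic proteins without enzyme activity of their own that act by binding other proteins. They bind and activate the kinase Map3k4, which feeds the stress MAP kinases p38 and JNK, and they bind Pcna, the p21 protein (gene Cdkn1a) and the Cdk1 kinase of mitosis. Gadd45a is a target of p53, Gadd45b (also called Myd118) is induced by NF-kB and TGF-beta and works with the nuclear receptor Car (gene Nr1i3) when the liver grows, and Gadd45g responds to cytokines.

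The genes lie on different chromosomes. On assembly GRCm38.p6, Gadd45a spans chr6:67035096-67037407 on the minus strand, Gadd45b chr10:80930091-80932204 on the plus strand and Gadd45g chr13:51846675-51848475 on the plus strand. The 250 bases before each gene's start (RefSeq, GRCm38.p6) are shown, 5′ to 3′ on the strand of the gene. They are given because the time course of Gadd45g differed from those of Gadd45a and Gadd45b. Capitals mark every match to the motifs searched on both strands.
Gadd45a, chr6:67037408-67037657: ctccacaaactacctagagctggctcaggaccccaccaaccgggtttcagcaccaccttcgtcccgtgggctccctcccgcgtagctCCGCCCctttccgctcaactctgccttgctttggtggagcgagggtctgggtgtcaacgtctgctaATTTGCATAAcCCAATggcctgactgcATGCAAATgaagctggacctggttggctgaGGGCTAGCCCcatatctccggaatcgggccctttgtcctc
Gadd45b, chr10:80929841-80930090: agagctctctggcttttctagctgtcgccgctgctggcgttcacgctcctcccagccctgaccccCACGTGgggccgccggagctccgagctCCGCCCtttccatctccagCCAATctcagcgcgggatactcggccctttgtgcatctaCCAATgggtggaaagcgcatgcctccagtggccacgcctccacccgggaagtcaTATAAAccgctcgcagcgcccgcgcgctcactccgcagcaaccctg
Gadd45g, chr13:51846425-51846674: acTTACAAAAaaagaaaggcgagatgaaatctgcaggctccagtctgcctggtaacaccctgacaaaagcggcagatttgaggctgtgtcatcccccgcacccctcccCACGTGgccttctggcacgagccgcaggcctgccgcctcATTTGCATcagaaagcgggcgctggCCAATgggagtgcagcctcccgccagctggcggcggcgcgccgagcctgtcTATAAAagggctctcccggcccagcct
Positions below are counted in bases before the start. The 3 stretches share a CCAAT box (CCAAT), at 86 to 82 for Gadd45a, at 139 to 135 and 100 to 96 for Gadd45b and at 78 to 74 for Gadd45g. That motif is in 33.8% of all 32851 mouse promoter stretches of this length. A TATA box (TATAAA, 12.4% of promoters) lies at 46 to 41 in Gadd45b and at 27 to 22 in Gadd45g, and these letters are not in the stretch of Gadd45a. Gadd45b and Gadd45g also have an E-box (CACGTG, 6.02%), at 185 to 180 and at 142 to 137. A GC box (GGGCGG, 32.7%) lies at 163 to 158 in Gadd45a and at 158 to 153 in Gadd45b, on the other strand in both. A p53 half-site (7.13%) was found at 40 to 31 in Gadd45a alone of the 3. The octamer ATTTGCAT, in 1.60% of promoters and added to the search after the sequences had been seen, occurs at 97 to 90 and at 70 to 63 in Gadd45a and at 103 to 96 in Gadd45g. A C/EBP site (TTNNGNAA, 36.8%) lies at 95 to 88 in Gadd45a, where it overlaps the octamer, and at 248 to 241 in Gadd45g. No match to an AP-1 site (TGANTCA, 6.75%), a CRE (TGACGTCA, 1.55%), a STAT site (TTCNNNGAA, 7.02%) or an NF-kB site (7.25%) lies in these windows. The GC content was 59.2% for Gadd45a, 65.2% for Gadd45b and 62.0% for Gadd45g, and the median of all promoters was 52.4%. A match is a run of letters and no measurement of binding.

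Values are deposited intensities in array units on a linear scale, and the level of one probe set is not comparable with that of another. The background of each array was the 95th percentile over its 27 bacterial controls and lay between 43.56 and 138.3. Where the lower side of a comparison had fewer than 2 arrays above background, the fold is a lower bound, computed against the background and written as at least that fold. Where the higher side had an array below background, no fold is given for the group. In whole liver RNA, fewer cells of a type and less RNA per cell cannot be told apart.

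Gadd45b, measured by its brightest probe set, was high at 4 to 12 h after PHx and below or near background at the late times and in normal liver. Its intensity was 18.9 and 10.7 in normal liver, with neither array above background, and 3124 and 2935 at 4 h. It was 493 and 593 at 8 h, and 248 and 2514.5 at 12 h. The 3 early groups did not overlap with normal liver, and the lowest of their 6 arrays was replicate 1 at 12 h. At the late times the arrays had 37.8 and 54.6 at 36 h, 44.0 and 47.7 at 48 h, and 37.4 and 28.7 at 72 h. Of these 6 late arrays 1 was above background, at 36 h, although each was above both normal values. Against normal liver Gadd45b was at least 53.8-fold higher at 4 h, at least 9.61-fold higher at 8 h and at least 14-fold higher at 12 h. The level at 8 h was 5.60-fold lower than at 4 h, so the highest level was at the first time sampled. No fold can be given for the late times, when the mean lay below background.

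In the linear model, the log2 change of Gadd45b was 5.43, 3.06 and 3.63 at the 3 early times and 0.52, 0.52 and 0.33 at the 3 late times, each in time order (SE 0.66 each). These are differences of log2(intensity + 57), a scale that understates the change of a dim gene. The changes at 36, 48 and 72 h were smaller than their SE. Averaged over the early times (4, 8 and 12 h) the change was 4.04 (SE 0.54), and over the late times (36, 48 and 72 h) it was 0.46 (SE 0.54). Early minus late was 3.58 (SE 0.38).

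The other 2 probe sets of Gadd45b were also highest at 4 h, with smaller changes. The second brightest had 1671 and 1764.5 at 4 h, against 133 and 94.1 in normal liver, a 15.3-fold difference. It was 3.09-fold higher than normal liver at 8 h and 3.93-fold higher at 12 h. At 36 h it was 1.86-fold and at 48 h 2.94-fold higher. At 48 h its arrays, 350 and 310.5, did not overlap with normal liver, and the brightest probe set was below background in both. The third spanned a narrow range, with 386 and 475 at 4 h against 246 and 170 in normal liver, which is 2.09-fold. It was 1.81-fold higher at 8 h and at 12 h and 1.005-fold at 36 h. As a description over the 14 arrays, which the probe sets share, the brightest probe set correlated at 0.89 with the second and at 0.82 with the third. Each probe set was above background in normal liver except the brightest one, and only that one allows no measured fold.

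**Figure D1:**
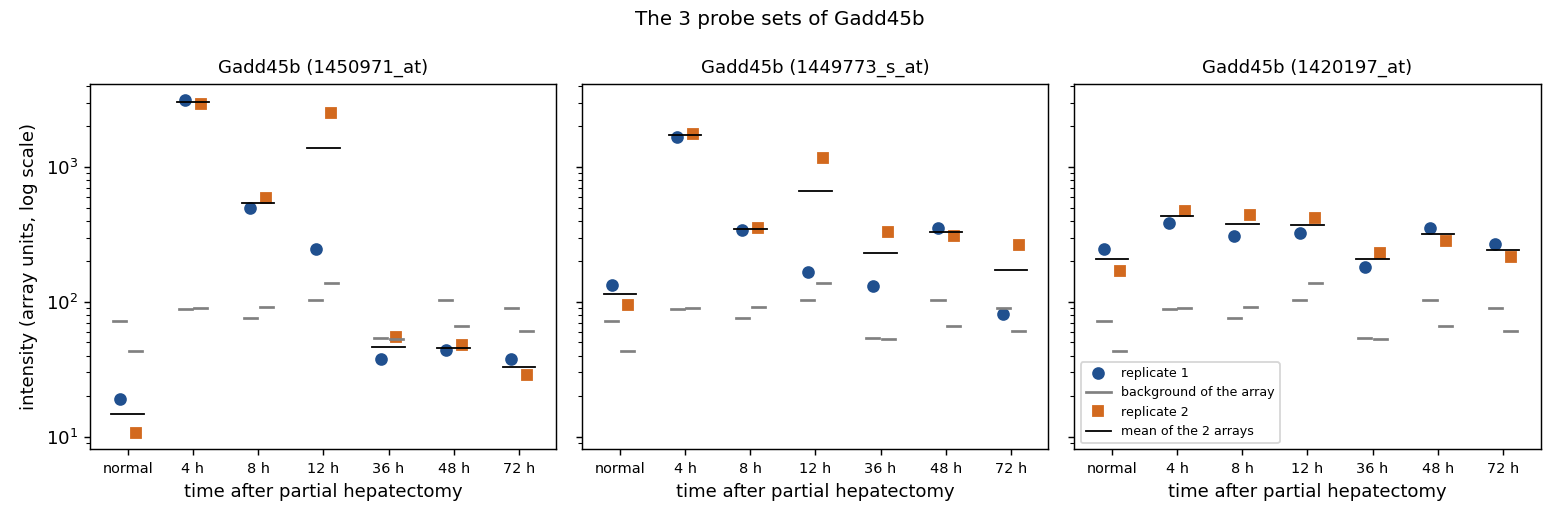
Intensity of the 3 probe sets of Gadd45b (vertical axis, array units, log scale) in normal liver and at each time after partial hepatectomy, 2 arrays a group; black bars are the mean of the 2 arrays and grey bars the background of each array. The probe set on the left ran between 10.7 and 3124, the middle one between 81.4 and 1764.5, and the one on the right between 170 and 475.

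Gadd45a was also higher at the early times than in normal liver, at lower intensities, and its highest mean was at 12 h. The gene had 24.9 and 28.6 in normal liver, 577 and 345 at 4 h, 115 and 87.6 at 8 h, and 60.9 and 892 at 12 h. Both arrays were above background at 4 h, 1 at 8 h, 1 at 12 h and neither in normal liver. At the late times it had 16.5 and 53.6 at 36 h, 41.7 and 24.9 at 48 h, and 83.7 and 33.9 at 72 h, and 1 of these 6 arrays was above background. The late groups at 36 and 48 h overlapped with normal liver, whereas the early groups and the group at 72 h did not. At 72 h both arrays were below background, and at 8 and 12 h 1 of 2 was. For Gadd45a the fold over normal liver was 7.93 or more at 4 h. No group fold is given at 8 and 12 h, where 1 of the 2 arrays was below background. Taken singly, Gadd45a exceeded normal liver 2.05-fold or more in replicate 1 at 8 h, and 15.9-fold or more in replicate 2 at 12 h. The log2 change was 2.59, 0.91 and 2.0 at the early times and 0.11, 0.10 and 0.43 at the late times, each in time order (SE 0.68 each). Over the early times it was 1.83 and over the late times 0.21 (SE 0.56 each), and early minus late was 1.62 (SE 0.39).

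Gadd45g was about level with normal liver through 12 h and low late after PHx. It had 1756.5 and 2487 in normal liver, 2099 and 1599.5 at 4 h, 2199 and 2421 at 8 h, and 3045 and 1251 at 12 h. All these arrays were above background, and each early group overlapped with normal liver or lay within its range. The late arrays had 382 and 441 at 36 h, 205 and 248 at 48 h, and 20.9 and 111 at 72 h. No late array reached an early or a normal one, and the 3 late groups did not overlap with each other, each lower than the time before. Against normal liver Gadd45g was 5.09-fold lower at 36 h, 9.27-fold lower at 48 h and at least 20.9-fold lower at 72 h, when 1 of 2 arrays was above background. The log2 change was -0.18, 0.14 and -0.09 at the early times and -2.20, -2.93 and -4.23 at the late times, each in time order (SE 0.41 each). Over the early times it was -0.05 and over the late times -3.12 (SE 0.34 each), and early minus late was 3.07 (SE 0.24).

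**Figure D2:**
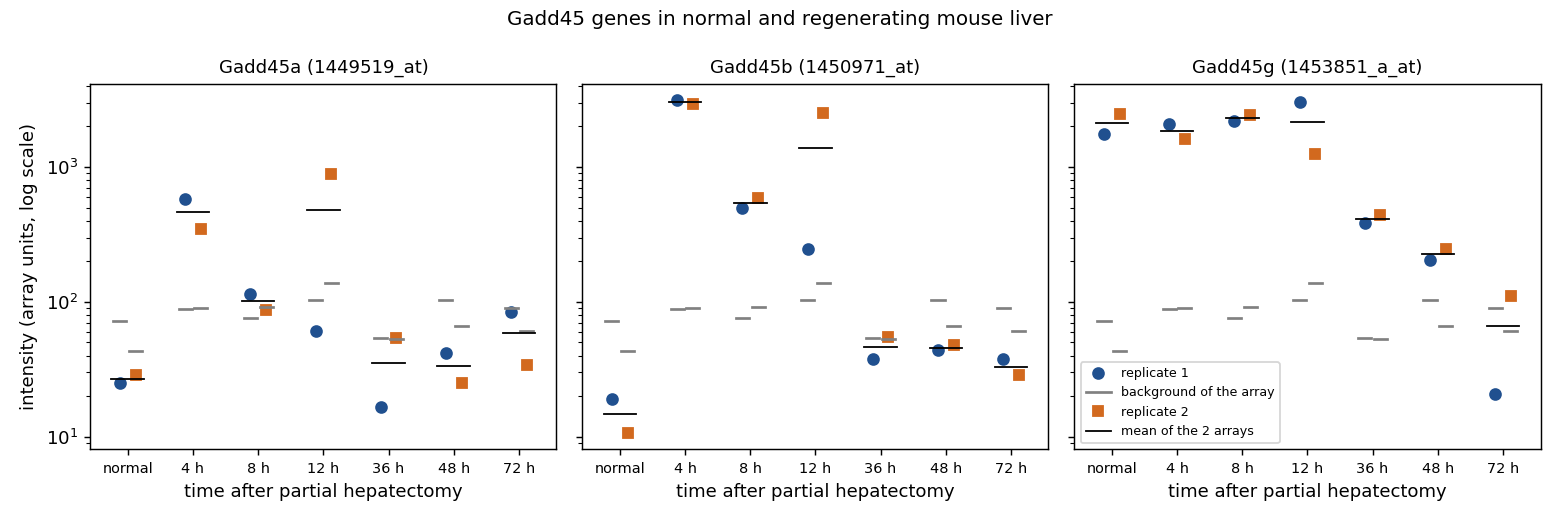
Intensity of the brightest probe set of each Gadd45 gene (vertical axis, array units, log scale) in normal liver and at each time after partial hepatectomy, 2 arrays a group; black bars are the mean of the 2 arrays and grey bars the background of each array. Gadd45a and Gadd45b are high at 4 h and in replicate 2 at 12 h and near or under background late, whereas Gadd45g stays between 1251 and 3045 through 12 h and lies at 20.9 and 111 at 72 h.

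At an adjusted threshold of 0.05 in the limma fit over all genes, 1 of the 3 members was higher at 4 h, where 1.72% of all 8453 genes were, and it was Gadd45b. The same member was higher at 8 h, where 5% of all genes were, and at 12 h, where 6.05% were. These calls are of the brightest probe set of Gadd45b, and the one at 8 h was lost with a pseudocount of 228 (log2 change 1.66). The second brightest probe set passed at 4 h but not at 8 h (1.25) or 12 h (1.62), and the third passed at none of the 6 times. At these times 0 of 3 members were lower, beside 0.887% of genes at 4 h, 5.22% at 8 h and 6.74% at 12 h. At 36 h 1 of 3 members was lower, Gadd45g, where 2.21% of genes were, and the same member was lower at 48 h (0.757% of genes) and at 72 h (0.864%). At the late times 0 of 3 members were higher, beside 2.41% of genes at 36 h, 1.73% at 48 h and 1.69% at 72 h. Since the family was chosen on these contrasts, nothing is read from these counts. Gadd45a passed at no time with all 14 arrays.

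The 2 arrays at 12 h disagreed for Gadd45a and Gadd45b. Gadd45b had 248 in replicate 1 and 2514.5 in replicate 2, a difference of 3.08 on the log2 scale that 6 of the 8453 genes exceeded. The difference for Gadd45a was 3.01, exceeded by 7 genes, and that for Gadd45g was 1.25 in the other direction, exceeded by 490. The median difference of all genes between these arrays was 0.34. Over all probe sets tested, replicate 2 at 12 h correlated at 0.910 with replicate 1 at 12 h. With the arrays at 4 h it correlated at 0.909 and 0.902. Set singly against normal liver, Gadd45b was at least 4.41-fold higher in replicate 1 and at least 44.7-fold higher in replicate 2. Gadd45a was at least 15.9-fold higher in replicate 2. No fold can be given for Gadd45a in replicate 1, where it had 60.9, below the background of that array. Without replicate 2 the log2 change at 12 h was 2.09 for Gadd45b, 0.49 for Gadd45a and 0.53 for Gadd45g. Without replicate 1 it was 5.16 for Gadd45b, 3.50 for Gadd45a and -0.72 for Gadd45g. Gadd45b passed the threshold at 12 h in both of these fits, and Gadd45a passed there only without replicate 1. This disagreement also widened the error of the whole fit for both genes, since the SE at 4 h was 0.30 for Gadd45a and 0.20 for Gadd45b when either 12 h array was left out. Gadd45a then passed at 4 h.

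Between the genes, the log2 change of Gadd45b exceeded that of Gadd45a by 2.20 (SE 0.23) over the early times and by 0.24 (SE 0.23) over the late times. From the first time to the last, Gadd45b minus Gadd45a was 2.84, 2.15, 1.63, 0.41, 0.42 and -0.11 (SE 0.28 each). Its SE is smaller than that of either gene, since replicate differences that the pair shared were subtracted. With the mean of the 3 Gadd45b probe sets in place of the brightest one, the early difference was 0.46 (SE 0.37). That value is near its SE, so the early gap itself, and not its size alone, rests on the probe set. Gadd45g minus Gadd45a was -1.88 (SE 1.02) over the early times and -3.33 (SE 1.02) over the late times. Gadd45g minus Gadd45b was -4.08 (SE 0.99) over the early times and -3.57 (SE 0.99) over the late times. Early, that gap came with a higher Gadd45b, and late with a lower Gadd45g. The early gap was -2.34 with the mean of the Gadd45b probe sets, -2.59 with a pseudocount of 228 and -5.32 with one of 14.25, and the late gap was -3.59, -2.56 and -4.42 in the same order. As a description, over the 14 arrays the log2 values of Gadd45b and Gadd45a correlated at 0.92, those of Gadd45g and Gadd45b at 0.52 and those of Gadd45g and Gadd45a at 0.33, with libraries shared by both genes of each pair.

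**Figure D3:**
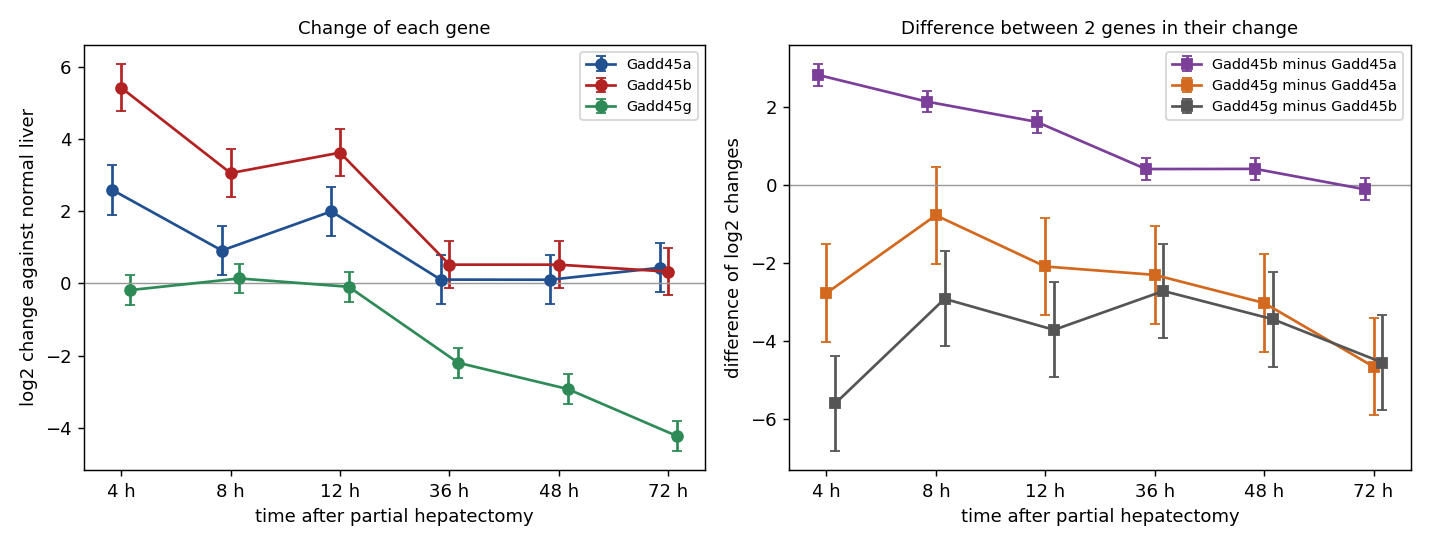
Left, log2 change of each Gadd45 gene against normal liver (vertical axis, log2 of intensity + 57) at 4 to 72 h after partial hepatectomy. Right, the difference between 2 genes in that change. Points are fitted values and bars 1 SE, 2 arrays a group. The SE is of the limma fit on the left, and on the right of a fit of the difference without moderated variances. Gadd45b starts at 5.43 and ends at 0.33, Gadd45a starts at 2.59 and ends at 0.43, and Gadd45g starts at -0.18 and ends at -4.23.

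In order of level, the mean of Gadd45b was highest at 4 h, then at 12, 8, 36, 48 and 72 h, and lowest in normal liver. Neighbours in that order overlapped at 12 and 8 h and at 36 and 48 h. In the last 4 of these groups only 1 array, at 36 h, was above background, so their order is not resolved. The second brightest probe set of Gadd45b ordered the late times 48, 36 and 72 h, with overlaps. For Gadd45a the order was 12, 4, 8, 72, 36 and 48 h and normal liver, and neighbours overlapped at 12 and 4 h and throughout the last 4 groups. For Gadd45g it was 8 h, 12 h, normal liver, 4, 36, 48 and 72 h, with overlaps among the first 4 groups and none after them.

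Some transcripts of other tissues and cell types were higher at 4 and 8 h than in normal liver, and some also later. The summed intensity of 19 pancreatic acinar transcripts was 47332 and 47453 at 4 h and 326433 and 353097 at 8 h, against 1491 and 2748 in normal liver. At least 18 of these 19 were above background at 4 and 8 h, against 8 or 9 in normal liver, and the brightest were Ctrb1, Cela1 and Cela2a, digestive enzymes. The summed intensity of 22 skeletal muscle transcripts was 23082 to 24666 at 4 h, against 1489 to 2439 in normal liver, with 22 above background at 4 h, against 9 or 10, and with Acta1, Ckm and Atp2a1 as the brightest. It was 14698 to 15652 at 8 h, 4295 to 4546 at 12 h and 1716 to 5108 at the late times. The 9 neutrophil markers measured summed to 2249 to 2910 at 4 and 8 h, against 866 to 1107 in normal liver, with 7 above background, against 5 or 7. Their sum was 2361 to 2445 at 12 h and 1281 to 2681 at the late times. The 4 adipocyte markers measured summed to 1174 to 1243 at 4 h and 2104 to 2203 at 8 h, against 345 to 463 in normal liver. The adipocyte sum was 1323 to 1972 at 12 h and 886 to 1390 at the late times. The 12 Kupffer cell and macrophage markers summed to 16861 to 17424 at 4 h, against 14050 to 15521 in normal liver, and were all above background in both. At 8 and 12 h their sum was below that of normal liver, at 10350 to 11388 and at 9243 to 9923. Gadd45b was lower at 8 h than at 4 h, as the muscle and macrophage sums were, while the acinar sum was higher at 8 h. In replicate 2 at 12 h, where Gadd45b had 2514.5, the acinar sum was 2565, within the range of normal liver, and the muscle sum 4295, above that range. In replicate 2 at 36 h the acinar sum was 52493, against 1459 in replicate 1, and Gadd45b had 54.6 there. All 8 hepatocyte markers measured were above background on every array. In limma 0 of 8 were called at any single time, with 1 to 5 at an unadjusted p under 0.05. The 5 were at 36 h, when the median log2 change of these markers was -0.62. In the limma F test over the 6 times 1 of the 8 passed, where 14% of all genes did. The summed intensity of the 8 markers was 201341 to 322991 at the late times, when Gadd45g was low, against 312490 to 404362 in normal liver. Beyond these measurements, the part of any of these transcripts in the Gadd45 values was not tested.

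In 4 arrays, replicate 2 at 8, 12, 36 and 72 h, the signal of the pyruvate carboxylase control at the 5′ end was under 0.2 of that at the 3′ end, and in the other 10 it was above. Within these 4 arrays, the mean log2 value at 8 and 12 h minus that at 36 and 72 h was 3.72 for Gadd45b, 1.89 for Gadd45a and 2.64 for Gadd45g (2 arrays against 2). In the replicate 1 arrays of the same times it was 2.11 for Gadd45b, 0.49 for Gadd45a and 3.84 for Gadd45g. The means of all 3 genes were higher early than late in both sets. For Gadd45a in the replicate 1 arrays this rests on the 8 h array (115), the only one of them above background. Its value there was lower at 12 h (60.9) than at 72 h (83.7).

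Around the family, 7 gene lists of its pathway held 102 genes, of which 93 were on the array with a single symbol and 81 were tested. At 4 h 5 of the 81 rose and 0 fell, at 8 h 7 rose and 3 fell, and at 12 h 15 rose and 1 fell. At 36 h 8 rose and 0 fell, at 48 h 10 rose and 1 fell, and at 72 h 10 rose and 0 fell. Of all genes, 2.6%, 10.2% and 12.8% were called at 4, 8 and 12 h, and 4.63%, 2.48% and 2.56% at 36, 48 and 72 h. The median log2 change of all genes was between 0.00 and 0.12. Over the 6 times, 23 of the 81 passed the F test of limma, where 14% of all genes did. Adjusted p-values of single genes below are from the limma fit with Benjamini-Hochberg adjustment over all probe sets tested.

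Of 13 tested genes of the stress MAP kinase cascade, 1 rose at 12 h, and 0 were called at 4, 8, 36, 48 and 72 h in limma. At those 5 times 3, 3, 1, 1 and 1 had an unadjusted p under 0.05. Without replicate 1 at 12 h 1 rose at 4 h and 2 at 12 h, and without replicate 2 at 12 h 1 rose at 4 h and 0 at 12 h. The gene called with all arrays was Mapkapk2, a kinase activated by p38, with 1204 and 1693 at 12 h, against 821 and 561 in normal liver (log2 change 1.01, SE 0.30, adjusted p = 0.0452), a call that was lost without replicate 2 at 12 h (0.78) or of normal liver (0.76) and without any single array at 4, 36, 48 or 72 h. Map3k4, the kinase that Gadd45 proteins bind, was not called at any time. Its log2 change was 0.04 at 4 h, when Gadd45b peaked, and -1.11 at 12 h (SE 0.41 each).

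Among 11 tested genes for proteins that Gadd45 binds, 1, 1 and 2 rose at 4, 8 and 12 h and 3, 3 and 4 at 36, 48 and 72 h, while 2 fell at 8 h and 1 at 12 h. Cdkn1a, which encodes the cell cycle inhibitor p21, had 2372 and 2473 at 4 h, against 222.5 and 274 in normal liver. It rose by 3.03 at 4 h (SE 0.37, adjusted p = 0.000952), by 2.95 at 8 h and by 3.40 at 12 h on the log2 scale. Unlike Gadd45b it was still raised at 36 h, by 2.31 (adjusted p = 0.00487). Its change at 48 h, 1.41, did not pass (adjusted p = 0.0847). At 72 h it was 1.81 (adjusted p = 0.0234), a call lost when any single array of that comparison was left out (1.69 to 1.94).

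Cdk1 had 931 and 748 at 36 h, 2306 and 2856 at 48 h and 1756 and 1656 at 72 h, against 78.3 and 117 in normal liver. At 48 h its log2 change was 4.10 (SE 0.23, adjusted p = 1.67e-06), and it was below background on all 6 early arrays. At 8 h it fell by 0.88 (adjusted p = 0.0322), a call lost without replicate 2 of normal liver (-0.70) and without either array at 8 h (-0.77 and -0.98). Pcna, the clamp of DNA replication, rose by 1.64 at 36 h (SE 0.21, adjusted p = 0.00134), by 1.55 at 48 h and by 1.14 at 72 h. The call at 36 h was lost without the 4 arrays of low 5′ signal (adjusted p = 0.0759 in limma) and that at 48 h with only the 4 arrays of the comparison (adjusted p = 0.1). The call at 72 h was lost in both of these fits, without replicate 1 of normal liver (0.95) and without either array at 72 h (1.07 and 1.22). The times when these partners were high were the times when Gadd45g was low. Nr1i3, the gene of the receptor Car, had 424 and 400 at 8 h, against 1824 and 1423 in normal liver, and on the log2 scale it fell by 1.83 in the limma fit (SE 0.33, adjusted p = 0.00519). It fell by 1.70 at 12 h (adjusted p = 0.00694), a call lost without the 4 arrays of low 5′ signal (-1.23, adjusted p = 0.11) and with only the 4 arrays of the comparison (adjusted p = 0.0616). Its change at 4 h, -0.99, did not pass (adjusted p = 0.182). Gadd45gip1, a protein named for binding Gadd45 proteins, was called at no time, with changes between -0.69 and -0.03 (SE 0.40).

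Of 14 other GADD genes and genes of the integrated stress response, 1, 4 and 6 rose at 4, 8 and 12 h and 1, 1 and 0 at 36, 48 and 72 h, and 0 fell. At 72 h 4 had an unadjusted p under 0.05. The median log2 change of the list was 0.32 at 4 h, 0.37 at 8 h and 0.90 at 12 h. Without replicate 2 at 12 h the count at 12 h was 4, and without all 4 arrays of low 5′ signal it was 0. Nupr1, a small stress-induced chromatin protein, was at least 32.9-fold higher at 8 h (log2 change 4.54, SE 0.42, adjusted p = 8.57e-05). Nupr1 moved with the pancreatic acinar transcripts. It had 117 and 182 at 4 h, 1757.5 and 1952 at 8 h, and 60.6 and 109 at 12 h, when neither array was above background, against 12.4 and 40.1 in normal liver. At 36 h it had 220 in replicate 2, where the acinar sum was 52493, and 54.4 in replicate 1, where that sum was 1459. The part of acinar RNA in the Nupr1 values was not tested. Asns, asparagine synthetase, rose at 4, 8, 12, 36 and 48 h by 1.23 to 1.75 on the log2 scale (SE 0.27). Its calls at 4, 8, 12 and 48 h were lost without replicate 2 of normal liver (0.84, 0.99, 0.99 and 1.12 in that order), and that at 36 h without replicate 2 of that time (1.60). Those at 4, 8 and 48 h were also lost without other single arrays. The gene of CHOP, Ddit3, which shares the GADD name as Gadd153, was called at 12 h (log2 change 0.98, SE 0.28, adjusted p = 0.0392), and lost that call without either array of normal liver (1.03 and 0.93), without replicate 2 at 12 h (0.66) and without either array at 8, 36 or 72 h. Ppp1r15a (GADD34), a phosphatase subunit, was called at no time, with changes between -0.35 and 0.68 (SE 0.26). At 4 h, when the log2 change of Gadd45b was 5.43, the called gene of this list was Asns, and 4 had an unadjusted p under 0.05 in limma. With low 5′ signal as a block in the fit, 3 rose at 4 h. Atf3, also of this list and not called at 4 h, had a mean of 925 ± 19.3 then, against 114 ± 49.9 in normal liver (SD, n = 2 each).

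Of 17 tested p53 targets 3, 2 and 2 rose at 4, 8 and 12 h and 1, 1 and 2 at 36, 48 and 72 h, and 0 fell. The list shares Cdkn1a with the list of binding partners. Btg2, an antiproliferative gene, had a mean of 6810 ± 605 at 4 h, against 736 ± 250 in normal liver (SD, n = 2 each), with a log2 change of 3.15 in the limma fit (SE 0.61, adjusted p = 0.0187). That call was lost without replicate 2 of normal liver (2.82) and without either array at 4 h (3.24 and 3.06). Its 2 arrays at 12 h, like those of Gadd45b, disagreed, and its call there (2.21) was lost without replicate 2 (0.86), without replicate 2 of normal liver (1.88) and without either array at 4 or 8 h. Plk3, a kinase of the stress response, was 5.25-fold higher at 4 h (log2 change 2.10, SE 0.42, adjusted p = 0.0224), a call lost without any single one of the 4 arrays compared (1.94 to 2.26). Phlda3, an inhibitor of Akt, rose at 48 h by 1.26 (adjusted p = 0.0114) and at 72 h by 1.13 (adjusted p = 0.021), when Gadd45a was below background. These calls were lost without replicate 2 of normal liver (1.12 and 1.0), at 48 h also without replicate 1 of that time (1.09) and at 72 h without either array of that time (1.10 and 1.16).

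Of 16 tested transcription factors reported to act on Gadd45 genes, 1 rose at 4 h, 1 at 8 h and 3 at 12 h, while 2 fell at 8 h, 1 at 12 h and 1 at 48 h. Without replicate 2 at 12 h 0 rose and 2 fell at 12 h, without replicate 1 at 12 h 5 rose and 2 fell, and without the 4 arrays of low 5′ signal 0 rose at 8 h and at 12 h. At 36 and 72 h 0 were called in limma, with 2 and 2 at an unadjusted p under 0.05. At 4, 8 and 12 h 9, 6 and 8 of the 16 had an unadjusted p under 0.05, where 1201, 2241 and 2575 of all 8453 genes did. With low 5′ signal as a block in the fit, 2 rose and 1 fell at 4 h. Cebpb, a factor of the acute liver response, had a mean of 7907 ± 374 at 4 h, against 2503 ± 150 in normal liver (SD, n = 2 each), with a log2 change of 1.64 in the limma fit (SE 0.26, adjusted p = 0.00666), a call lost without either array at 4 h (1.69 and 1.59). It rose by 1.27 at 12 h (adjusted p = 0.00943), a call lost without replicate 2 at 12 h (0.97). Cebpa, which keeps hepatocytes differentiated, fell by 1.83 at 8 h (adjusted p = 0.0144), a call lost without replicate 2 of normal liver (-1.64) and without either array at 8 h (-1.91 and -1.76). Stat3, which carries the interleukin 6 signal, rose by 1.20 at 8 h (adjusted p = 0.032) and by 1.46 at 12 h (adjusted p = 0.0115). The call at 8 h was lost without any single array of normal liver, 4 h or 8 h (0.99 to 1.41), and that at 12 h without replicate 2 (1.03). Myc fell at 48 h (log2 change -2.29, SE 0.39, adjusted p = 0.00817), when it was at least 6.58-fold lower than in normal liver, and lost that call without replicate 2 of normal liver (-2.26) or replicate 1 at 48 h (-2.28).

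Of 7 tested genes of DNA demethylation, a process in which Gadd45a has been reported to take part, 0 were called at any time in limma, with 1 or 2 at an unadjusted p under 0.05 at each time. Over the 6 times 1 of the 7 passed the F test of limma, where 14% of all genes did. Of 10 tested genes of entry into mitosis, which Gadd45 proteins are known to restrain through Cdk1, 0 rose at 4 and 8 h and 2 at 12 h. They were followed by 5 at 36 h and 7 at both 48 and 72 h. At 8 h 1 fell, Cdk1, and 0 fell at the other times. The median log2 change of this list was 0.18 at 4 h, and 1.5, 2.44 and 2.11 at the late times in order. Without the 4 arrays of low 5′ signal the counts were 1 at 36 h, 6 at 48 h and 4 at 72 h. Ccnb2, a mitotic cyclin, was at least 16.1-fold higher at 48 h (log2 change 3.59, SE 0.26, adjusted p = 1.15e-05) and at least 22.7-fold higher at 72 h. Plk1, a mitotic kinase, was at least 13.2-fold higher at 48 h (adjusted p = 2.6e-05), and Aurka, another, 7.97-fold higher (adjusted p = 0.000674). Wee1, the kinase that holds Cdk1 inactive, was at least 8.18-fold higher at 36 h (log2 change 2.38, adjusted p = 0.00192), a call lost without the 4 arrays of low 5′ signal (2.15, adjusted p = 0.0989).

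**Figure D4:**
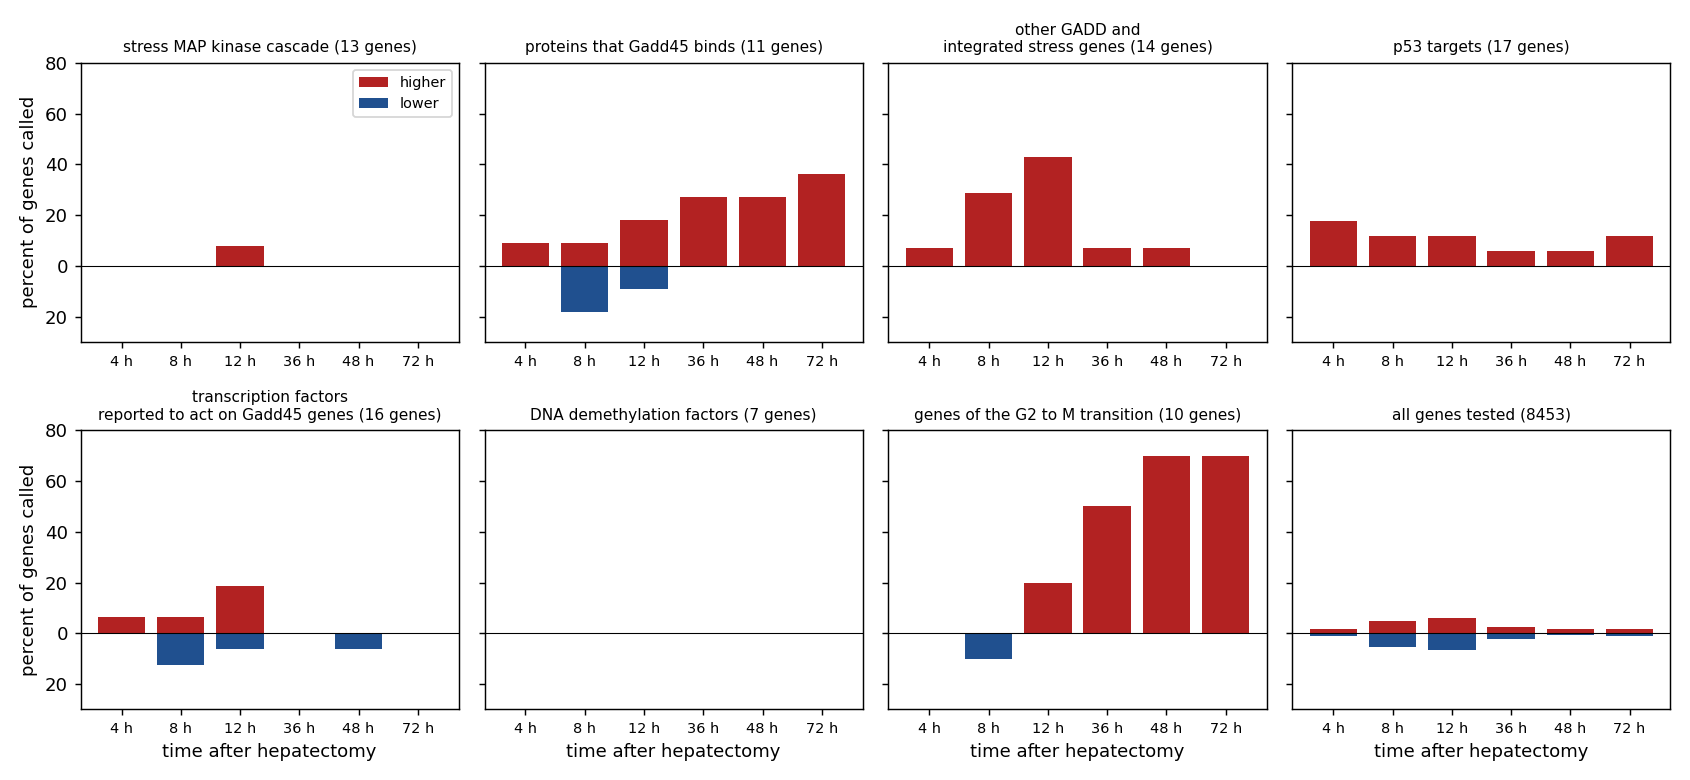
Share of the tested genes of each pathway list, and of all genes tested, that were called in limma at an adjusted 0.05 at each time after partial hepatectomy against normal liver (vertical axis, percent of genes, higher upwards and lower downwards, 2 arrays a group). Genes of entry into mitosis reach 7 of 10 at 48 and 72 h, other GADD and integrated stress genes 6 of 14 at 12 h, and the stress MAP kinase cascade 1 of 13 at 12 h.

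The genes most like each member were those with the highest correlation of log2 values over the 14 arrays, given as a description since all genes share the arrays. For Gadd45b they were Btg2 at 0.982, Junb at 0.979, Akap12 at 0.964, Pdk4 at 0.958 and Cebpb at 0.949. Junb, a component of AP-1, had a mean of 1922.5 ± 247 at 4 h, 1003 ± 198 at 8 h and 1526 ± 1003 at 12 h, against 343 ± 102 in normal liver (SD, n = 2 each). Its arrays at 12 h were spread like those of Gadd45b. For Gadd45a they were Atf3 at 0.962, Bcl2l1 at 0.95, Akap12 at 0.95, Slc23a2 at 0.938 and Cldn14 at 0.938, and Atf3, a stress-induced transcription factor, had a mean of 925 ± 19.3 at 4 h, against 114 ± 49.9 in normal liver (SD, n = 2 each). Without replicate 2 at 12 h Btg2, Junb and Akap12 ranked 1, 2 and 3 for Gadd45b, at 0.982, 0.976 and 0.964, while Pdk4 ranked 8 and Cebpb 11. For Gadd45a Atf3 and Akap12 then ranked 1 and 2, at 0.937 and 0.931, while Bcl2l1 ranked 6, Slc23a2 10 and Cldn14 13. For Gadd45g they were Retsat at 0.910, Ecm1 at 0.909, Txnip at 0.886, Il15ra at 0.882 and Errfi1 at 0.873, and without replicate 2 at 12 h Il15ra ranked 6 and the other 4 ranked 1 to 4. Retsat, an enzyme of vitamin A metabolism, had a mean of 2920.5 ± 311 at 72 h, against 6436 ± 1486 in normal liver, and Ecm1, a secreted matrix protein, 993 ± 53, against 1756.5 ± 173 (SD, n = 2 each). Both means at 72 h were lower than in normal liver, and the arrays of Retsat and of Ecm1 did not overlap between these groups.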

How the data were processed

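Total RNA of mouse liver was labelled with biotin and measured on 14 arrays. The deposited values are intensities, 1 per probe set, on a linear scale with 0 negative values, per the series table. No label or file header used here names the software with which the authors made them. Trimmed by 2 percent at each end, the array means were 500.2 to 500.3, so the deposited scaling was kept, and the median intensity of an array was 127.8 to 233.1. Groups came from the sample titles. The annotation of the array gave 1 symbol for 20380 of 22626 probe sets that are not controls, several for 691 and none for 1555.

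Intensities were analysed as log2(intensity + 57), 57 being the 25th percentile, for probe sets with a mean of at least 128.8, the 40th percentile. In R 4.3.3 with limma 3.58.1, 1 model of the 7 groups was fitted to the 14 arrays, with variances moderated across probe sets (7 residual degrees of freedom and 5.08 from the prior), and p-values were adjusted by Benjamini-Hochberg at 0.05 within each contrast. A gene is represented by its brightest probe set. The members, the 7 pathway lists and the marker lists were chosen with earlier results of these data known. Genes named from a pathway list were among up to 3 called genes of the largest change at a time, plus Map3k4, Cdk1, Pcna, Cdkn1a, Gadd45gip1, Ddit3, Ppp1r15a, Nr1i3 and Myc in every case, and genes like a member were the 5 with the highest correlation. Some list genes are not analysed here. Alternatives changed the normalization (quantile), the pseudocount (14.25 or 228), the filter (none, or the 60th percentile), the prior variance (with a trend on intensity), the weight of each array, the arrays used (each left out in turn, only those 4 of a comparison, or the 4 of low 5′ signal left out), the blocks (replicate number, or low 5′ signal) and the probe set (mean of all of a gene). The procedure was tested on simulated data.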

Additional observations from a re-analysis of the deposited data

How the results depend on the processing

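Under the alternatives other than leaving out 1 array, no result changed its direction after passing the threshold, and the calls of named pathway genes were lost in 85 instances and kept in 488. With 1 array left out they were lost in 111 and kept in 561. The size of the early change of Gadd45b, 4.04, was 5.27 with a pseudocount of 14.25, 2.55 with one of 228 and 2.30 with the mean of its probe sets. The late change of Gadd45g, -3.12, was -2.40 with a pseudocount of 228. Gadd45b minus Gadd45a, 2.20 early, was 2.72 with a pseudocount of 14.25, 1.57 with 228 and 0.46 (SE 0.37) with the mean of probe sets. Its late value, 0.24, was 0.58 with 14.25. Gadd45g minus Gadd45b, -4.08 early, was -5.32, -2.59 and -2.34 in the same order. Gadd45a was not tested with the filter at the 60th percentile. The construction of these scales sets the sizes of dim genes.

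With 1 array left out, the early change ranged over 1.33 to 2.34 for Gadd45a, 3.53 to 4.55 for Gadd45b and -0.29 to 0.20 for Gadd45g, and the late change over 0.11 to 0.32, 0.37 to 0.54 and -3.36 to -2.87. Gadd45b minus Gadd45a ranged over 2.09 to 2.32 early and 0.13 to 0.36 late, Gadd45g minus Gadd45a over -2.59 to -1.17 and -3.62 to -3.04, and Gadd45g minus Gadd45b over -4.80 to -3.36 and -3.90 to -3.25.

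Counts of pathway genes depended on single arrays. The count at 4 h, 5, was 9 with a pseudocount of 228, the 60th percentile filter, array weights, the low 5′ block or only the 4 arrays, and 10 with an intensity trend. It was 1 without either 4 h array, 2 without normal replicate 2 and 12 without either 12 h array. The count at 8 h, 10, was 4 without the low 5′ arrays or either 8 h array and 3 without normal replicate 2 (3 to 13 in all). The count at 12 h, 16, was 10 with no filter, 4 with array weights, 3 without the low 5′ arrays, 1 with only the 4 arrays, 5 without normal replicate 2 and 9 without 12 h replicate 2 (5 to 21). The count at 36 h, 8, was 2 without the low 5′ arrays and 4 with only the 4 arrays or without 36 h replicate 2 (4 to 11). The count at 48 h, 11, was 6 with only the 4 arrays and 7 without normal replicate 2 or 48 h replicate 1 (7 to 14). The count at 72 h, 10, was 5 without the low 5′ arrays or either 72 h array and 6 without normal replicate 2 (5 to 12). The F test count, 23, was 15 without the low 5′ arrays and ranged over 16 to 33 with 1 array left out. The cause of these moves was not tested.

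The labels tie no arrays by replicate number. Deviations of same-numbered arrays from group means correlated at -0.19 to 0.53 over 21 pairs of groups, with 9 above 0.1 and not all, so the numbers were not taken as pairs, although the 4 arrays of low 5′ signal were all replicate 2. With the replicate number as a block the early changes stayed at 1.83, 4.04 and -0.05, and the counts were 6, 11, 16, 9, 11 and 10 from 4 to 72 h, with 24 by the F test. Signals near background limit Gadd45a at most times and Gadd45b late.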
